A study of Mus musculus with 3 samples.

Results

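The genes described here are 42 genes of the cell division cycle, taken by symbol from lists of known cell cycle genes: 19 that act when DNA is copied and 23 that act in mitosis, among the 28693 genes of the deposited matrices. The rule used no expression value, but the genes were chosen with earlier results of these data known. All 42 symbols were present. The replication genes are Mcm2, Mcm3, Mcm4, Mcm5, Mcm6, Mcm7, Pcna, Rrm1, Rrm2, Tyms, Tk1, Gins2, Cdc6, Cdt1, Uhrf1, Slbp, Ccne1, Ccne2 and 2810417H13Rik, which RefSeq lists as Pclaf. The mitosis genes are Mki67, Top2a, Cdk1, Ccnb1, Ccnb2, Ccna2, Birc5, Cdc20, Cenpf, Cenpe, Cenpa, Ube2c, Nusap1, Tpx2, Aurkb, Bub1, Kif11, Kif23, Hmmr, Prc1, Plk1, Cdca8 and Cdca3.

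A dividing cell first licenses its replication origins, opens them with the Mcm helicase and copies its DNA with the help of the Pcna clamp and of enzymes that supply nucleotides. It then condenses and separates its chromosomes with a spindle, under cyclin-dependent kinase 1 and the anaphase-promoting complex, a ubiquitin ligase. The transcripts of the replication genes are known to peak from late G1 into S phase, and those of the mitosis genes in G2 and M. In skin, dividing keratinocytes sit mainly in the basal layer and in parts of the hair follicle, while adult dermal fibroblasts divide rarely, and abdominal skin expands in pregnancy.

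The study set dermal cells of mouse abdominal skin at 3 stages side by side, with 1 10x Chromium 3′ v2 library per stage. The NP library came from non-pregnant mice that were given tamoxifen over 3 days, with harvest 48 days later. The dpc16 library came from mice at gestation day 16 and the dpp42 library from mice at day 42 after birth, both with tamoxifen given during the pregnancy. All mice were C57BL/6 with the genotype Col1a2creERT2; R26H2B EGFP, that is, a tamoxifen-inducible Cre under a collagen gene promoter and a nuclear green fluorescent reporter, and the labels give 8-12 weeks as the age. The number of mice behind each library is not given in the labels. The cells were captured at random and not sorted by the reporter.

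With 1 library per stage there was no spread between animals to test a difference against. Every interval below is a 95% interval for counting error alone, and no p-value is given. Levels are in CPM, the UMIs of a gene or group per 1000000 UMIs of the same cells, and a 3′ UMI count is not scaled by transcript length. Levels were compared between libraries for the same gene and never between genes. The 3 comparisons share libraries, so they are not independent of each other.

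Barcodes with at least 200 genes and at most 10% mitochondrial UMIs were kept: 1289 of NP, 3652 of dpc16 and 1081 of dpp42, at median depths of 3119, 4300.5 and 3252 UMIs. Between libraries, 11 barcodes were shared, which touched 22 kept cells. The cells were clustered with the 42 genes and the other cell cycle lists taken out, and clusters were named from marker lists. Although the label is dermis, keratinocyte-like cells made up 83.9% of the kept cells in NP, 54.9% in dpc16 and 74.4% in dpp42, with fibroblast-like cells at 8.92%, 31.8% and 11.3%. Keratinocyte-like cells numbered 1082, 2006 and 804, so most results below rest on them. Different clusters held most of that class in different libraries. In NP the most populous were spinous cluster 9 with 225 cells and basal cluster 2 with 202, while in dpc16 cluster 12 of the upper follicle had 251, bulge cluster 1 had 240 and cluster 7, which has no subtype, had 237. In dpp42, basal cluster 2 with 91 cells and clusters 0 and 9 with 90 each were the most populous.

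The stretches just upstream of the genes with most UMIs are shown first, because the replication and mitosis groups also differed in the DNA before their start sites, which the lists did not use. In the RefSeq promoter table on GRCm38.p6, which gives 250 bases before to 50 bases after each start, 16 of the 19 replication genes and 20 of the 23 mitosis genes had an entry, and the missing genes were Mcm4, Gins2, Ccne2, Ccna2, Aurkb and Tpx2. Each run below covers 170 bases before to 30 bases after a start, 5′ to 3′ on the gene's strand. Capitals mark exact matches on either strand to the CHR letters TTTGAA, the CCAAT box letters CCAAT, or the E2F-type letters TTTCCCGC and TTTGGCGC. On the other strand the CHR letters read TTCAAA, the CCAAT box reads ATTGG and the first of the E2F-type runs reads GCGGGAAA. Chosen were the 3 genes of each group with most UMIs and an entry, and the Mcm gene with most UMIs.
Slbp (chr5:33652545-33652744, minus strand): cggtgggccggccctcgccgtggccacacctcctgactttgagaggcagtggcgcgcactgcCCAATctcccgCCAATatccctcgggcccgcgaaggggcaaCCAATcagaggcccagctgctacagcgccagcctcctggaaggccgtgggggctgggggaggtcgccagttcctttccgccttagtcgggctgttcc
Pcna (chr2:132253151-132253350, minus strand): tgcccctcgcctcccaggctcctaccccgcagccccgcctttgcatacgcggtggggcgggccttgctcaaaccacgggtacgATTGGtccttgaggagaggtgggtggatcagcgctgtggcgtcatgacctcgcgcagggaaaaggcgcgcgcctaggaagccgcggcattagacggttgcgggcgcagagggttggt
2810417H13Rik (chr9:65890153-65890352, plus strand): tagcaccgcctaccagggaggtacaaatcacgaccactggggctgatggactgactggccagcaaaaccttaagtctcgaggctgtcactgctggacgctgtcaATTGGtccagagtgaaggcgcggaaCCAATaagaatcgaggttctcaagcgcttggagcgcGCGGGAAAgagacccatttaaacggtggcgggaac
Mcm7 (chr5:138171854-138172053, minus strand): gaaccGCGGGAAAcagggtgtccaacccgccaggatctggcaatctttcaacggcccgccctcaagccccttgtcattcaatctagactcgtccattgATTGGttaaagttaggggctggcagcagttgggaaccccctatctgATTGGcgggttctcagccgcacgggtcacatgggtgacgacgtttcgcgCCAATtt
Top2a (chr11:99024160-99024359, minus strand): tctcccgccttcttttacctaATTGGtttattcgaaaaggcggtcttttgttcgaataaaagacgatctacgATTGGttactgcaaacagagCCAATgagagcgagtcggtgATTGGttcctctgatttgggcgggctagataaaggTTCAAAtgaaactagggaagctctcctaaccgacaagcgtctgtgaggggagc
Cenpa (chr5:30666716-30666915, plus strand): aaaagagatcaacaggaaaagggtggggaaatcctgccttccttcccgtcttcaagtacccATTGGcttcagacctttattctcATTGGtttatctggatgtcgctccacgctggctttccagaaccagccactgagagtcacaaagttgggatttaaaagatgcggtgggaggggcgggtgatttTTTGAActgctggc
Ube2c (chr2:164769759-164769958, plus strand): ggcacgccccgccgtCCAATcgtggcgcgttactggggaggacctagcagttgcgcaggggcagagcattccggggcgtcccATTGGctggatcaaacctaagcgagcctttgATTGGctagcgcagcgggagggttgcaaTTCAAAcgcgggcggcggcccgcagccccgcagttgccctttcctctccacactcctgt

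The CHR letters stood in 16 of 21 promoters of mitosis genes (76.2%) and in 1 of 18 promoters of replication genes (5.56%), against 17.9% of all 32851 promoters of the same length. The E2F-type letters stood in 7 of 18 replication promoters (38.9%) and in 0 of 21 mitosis promoters, against 1.56% of all. The CCAAT box was in 19 of 21 mitosis promoters (90.5%), in 13 of 18 replication promoters (72.2%) and in 37.4% of all. Some genes had more than 1 promoter, so these counts are over promoters and not over genes. Matches of different motifs overlapped in 1 promoter of the 42 genes, that of Cdca8, and in 49 promoters of the table. The CHR and E2F-type letters are known from other work on cell cycle genes, while a match here is a match of letters only.

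Over all kept cells, transcripts of both groups were present at every stage, and the mitosis genes differed more between stages than the replication genes. The mitosis genes gave 3547 UMIs in NP, 7330 in dpc16 and 2462 in dpp42, or 601, 372 and 453 CPM. The replication genes gave 1898, 5058 and 1776 UMIs, or 321, 257 and 327 CPM. The dpc16 level was 0.619 of the NP level for mitosis genes (0.595 to 0.645) and 0.798 for replication genes (0.757 to 0.842). These sums mix cell classes whose shares differed between libraries, so the classes are taken apart below.

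Within keratinocyte-like cells the mitosis genes were lower in both dpc16 and dpp42 than in NP, and the replication genes differed little. The mitosis sum was 657 CPM in NP (636 to 679), 501 CPM in dpc16 (489 to 514) and 529 CPM in dpp42 (508 to 551). The replication sum was 327 CPM in NP (312 to 343), 300 CPM in dpc16 (290 to 310) and 323 CPM in dpp42 (307 to 340). The NP interval of the mitosis sum lay above both others, while the NP and dpp42 intervals of the replication sum overlapped almost wholly. As a ratio, mitosis stood at 0.762 for dpc16 over NP (0.731 to 0.795) and at 0.805 for dpp42 over NP (0.764 to 0.849). The same ratios for replication were 0.915 (0.864 to 0.970) and 0.987 (0.920 to 1.06). Pcna, described below, was the replication gene furthest below NP in dpc16, and the sum was not taken without it. The value of 0.915 is therefore not read as a fall of the whole group. Scaling the libraries by the median ratio of all genes in place of the total, which moved the median log2 ratio of all genes by 0.18 for dpc16 over NP, gave 0.866 for mitosis and turned the replication ratio to 1.04.

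**Figure D1:**
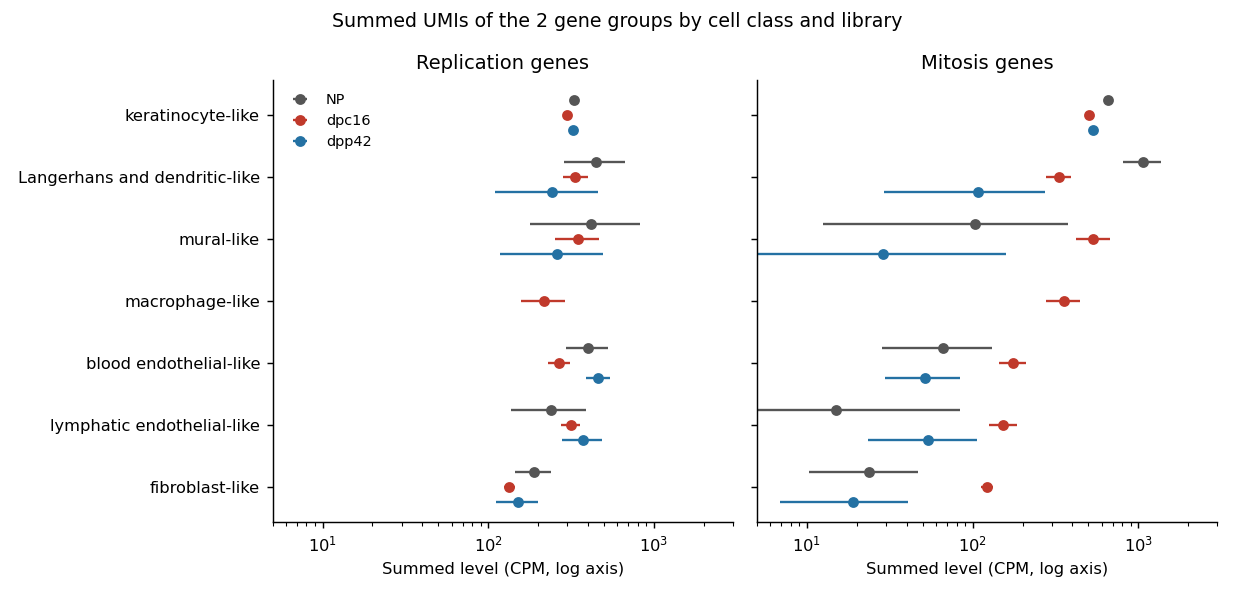
Summed level of the replication genes and of the mitosis genes in CPM (log axis) by cell class, with 1 point per library and exact 95% Poisson intervals for counting error. Bars that reach the left edge run on below it. In keratinocyte-like cells the 3 mitosis sums lay between 501 and 657 CPM, while in fibroblast-like cells the dpc16 point stood at 122 CPM and the NP and dpp42 points at 23.8 and 18.8 CPM.

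The mitosis UMIs came from few cells. In keratinocyte-like cells, 29 cells of NP, 39 of dpc16 and 20 of dpp42 gave 50% of the mitosis UMIs, whereas the replication UMIs were spread over more, with 86, 141 and 52 cells for the same share. A mitosis UMI was seen in 26.2%, 30.8% and 28% of these cells and a replication UMI in 56.1%, 58.5% and 56.5%. One small cluster, named 17/6 here, weighed heavily: its 17 NP cells and 16 dpp42 cells held 735 and 610 mitosis UMIs, or 11136 and 9749 CPM, and it had no dpc16 cell. It was split from a Schwann-like cluster after its leading genes had been seen, and without that split the mitosis ratio was 0.956 for dpc16 over NP and 0.734 for dpp42 over NP. Unsplit, these cells count as Schwann-like, although the basal keratinocyte list was their best list at resolution 2. With no mitochondrial limit, a cluster of 21 NP, 0 dpc16 and 17 dpp42 cells, also led by Hist1h1b and Top2a, was named keratinocyte-like without a split. The distance between the dpc16 and NP mitosis sums therefore depends on where these cells are counted.

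Gene by gene, a gene was taken as higher or lower where its CPM differed at least 1.5-fold with an interval that excluded 1, among genes that reached 10 CPM in either library and 20 UMIs over the pair. Of the 42 genes, 31 were measured by this rule for dpc16 over NP. The low ones were Mcm2, Mcm3, Mcm5, Cdc6, Cdt1, Uhrf1, Ccne1, Ccne2, Aurkb, Bub1 and Plk1. Mcm4, Kif11 and Kif23 passed the minimum through NP only and Gins2 through dpc16 only, so their entry was not independent of their difference. Among mitosis genes, 10 of 20 measured were lower in dpc16 than in NP and 0 were higher, where 21.8% of all 7930 genes were lower and 8.75% higher. Among replication genes, 1 of 11 was lower and 1 was higher. The median log2 ratio was −0.57 for mitosis genes, −0.06 for replication genes and −0.15 for all genes. Median-ratio scaling kept 6 of the 10 lower mitosis genes, namely Top2a, Cenpf, Nusap1, Kif11, Kif23 and Hmmr, and under it 52.4% of all calls were higher against 28.6% by total scaling. Leaving out the cells of 17/6 kept 4, namely Cenpf, Kif11, Kif23 and Hmmr, and made Cdca3 higher. Among replication genes it left Pcna lower and Tyms higher, and made Tk1 higher.

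For dpp42 over NP, 2 of 20 mitosis genes were lower and 0 higher, where 2.85% of 7954 genes were lower and 4.34% higher, and 0 of 10 replication genes were called in either direction. The median log2 ratio was −0.35 for mitosis genes, with 19 of 20 below 0, against 0.01 for all genes and −0.04 for replication genes. By median-ratio scaling 51.6% of all calls were higher, against 60.3% by total scaling. For dpp42 over dpc16, 5 of 20 mitosis genes were higher and 4 lower, and 2 of 11 replication genes were higher and 2 lower, where 22.3% of 7981 genes were higher and 8.21% lower. Scaling mattered most for that comparison: median-ratio scaling moved all log2 ratios by −0.22 and put 44.3% of all calls higher against 73.1% by total scaling. By that scaling 1 mitosis gene, Mki67, was higher and 6 were lower, and 1 replication gene, Pcna, was higher and 2, Tyms and Gins2, were lower. The calls of higher mitosis genes also rested on cluster 17/6, which had 16 dpp42 cells and no dpc16 cell. Without its cells no measured mitosis gene was higher, and Ccnb1, Ccnb2, Cdc20, Cenpa, Ube2c, Cdca8 and Cdca3 were lower. Among replication genes, Pcna and Mcm4 stayed higher and Tyms and Gins2 lower. Mcm4, Kif11 and Kif23 passed the minimum of this comparison through dpp42 only and Gins2 through dpc16 only.

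**Figure D2:**
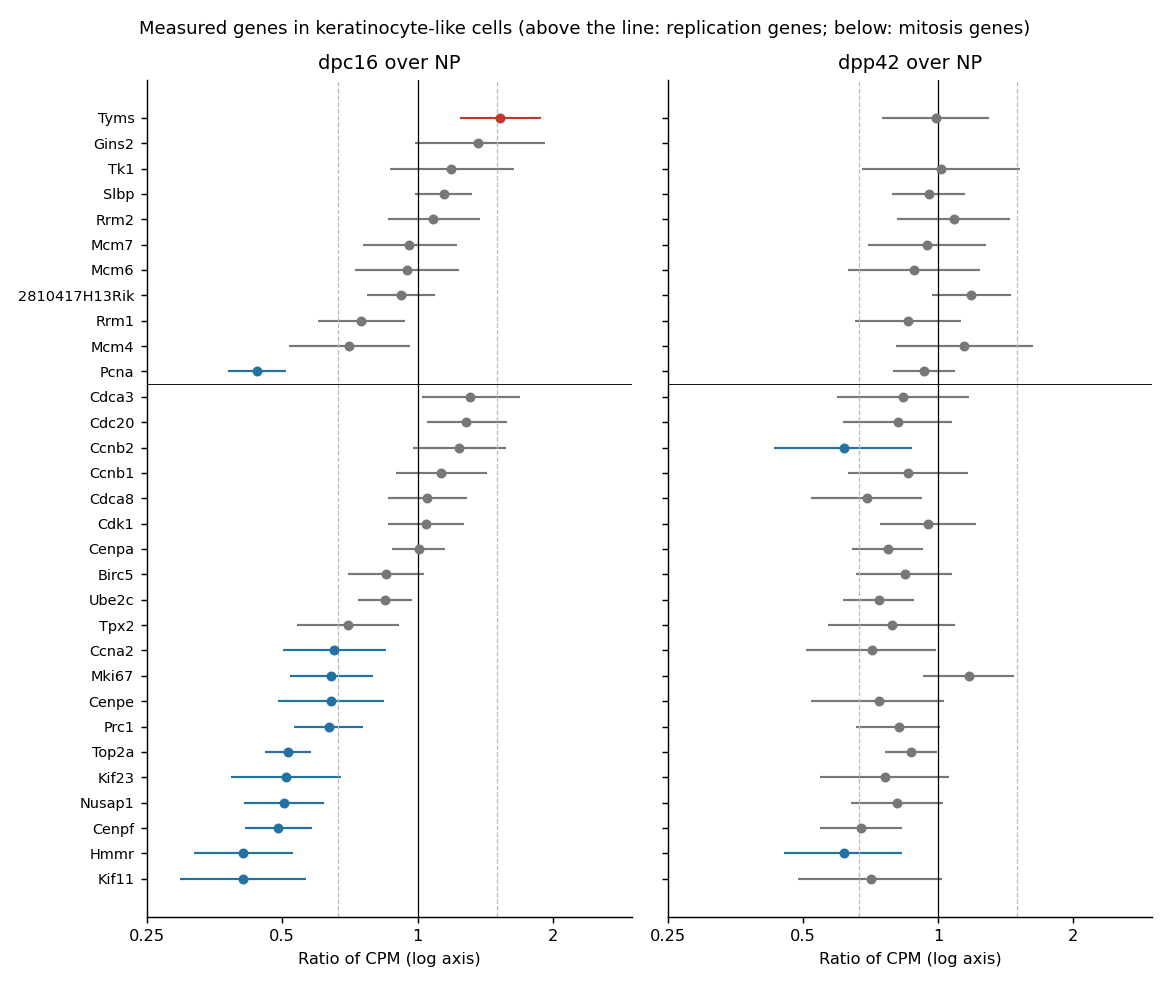
Ratio of CPM between libraries in keratinocyte-like cells (log axis) for each measured gene, with exact 95% intervals for counting error. Red marks higher, blue lower and grey neither by the 1.5-fold rule, whose limits are the dashed lines. Pcna at 0.44 and Tyms at 1.53 for dpc16 over NP stand apart among the replication genes, while the mitosis genes run between 0.41 for Hmmr and Kif11 and 1.31 for Cdca3 among those measured.

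Among the replication genes, the helicase subunits Mcm6 and Mcm7 were level, which here means neither higher nor lower by the 1.5-fold rule in any of the 3 comparisons. Mcm7, the helicase subunit with most UMIs, stood at 19.4 CPM in NP, 18.6 in dpc16 and 18.3 in dpp42 in keratinocyte-like cells. Mcm6 stood at 16, 15.1 and 14.1 CPM. Mcm4, another subunit, was at 13.1, 9.21 and 15 CPM, and its dpp42 level was 1.63 of the dpc16 level (1.19 to 2.22). Mcm2, Mcm3 and Mcm5 were below 10 CPM in every library, as were Cdc6 and Cdt1, which load the helicase at origins. Gins2, a part of the active helicase, was at 9.30, 12.7 and 6.17 CPM, and its dpp42 level was 0.49 of the dpc16 level (0.31 to 0.73).

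Pcna, the sliding clamp that holds the polymerase on DNA, was the replication gene that stood furthest apart. It had 352 UMIs in NP, 360 in dpc16 and 282 in dpp42, or 66.8, 29.3 and 62.2 CPM. Its dpc16 level was 0.44 of the NP level (0.38 to 0.51), while dpp42 over NP was 0.93 (0.79 to 1.09). Pcna was low in dpc16 alone, and the dpp42 level was 2.12 of the dpc16 level (1.81 to 2.48). Its ratio for dpc16 over NP stayed at 0.499 by median-ratio scaling and at 0.446 without the cells of 17/6. 2810417H13Rik, the Pcna-associated factor, did not follow it, at 37.2, 34.1 and 44.1 CPM.

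The enzymes that supply nucleotides differed from each other. Tyms, thymidylate synthase, had 120, 427 and 102 UMIs, or 22.8 CPM in NP, 34.8 in dpc16 and 22.5 in dpp42. It was high in dpc16 alone, at 1.53 of the NP level (1.24 to 1.89), and dpp42 was at 0.65 of dpc16 (0.52 to 0.80). Rrm1 and Rrm2 encode the large and small subunits of ribonucleotide reductase. Rrm1 was at 24.7, 18.5 and 21.2 CPM and Rrm2 at 19.5, 21.2 and 21.2 CPM, with no library apart by the 1.5-fold rule. Tk1, thymidine kinase, was at 10.6, 12.6 and 10.8 CPM. Slbp, which binds the stem-loop of histone mRNAs, was level at 48.4, 55.3 and 46.1 CPM. Uhrf1, which keeps DNA methylation through replication, was at 9.49, 5.95 and 9.70 CPM. The cyclin E genes, which drive entry into S phase, were under 5 CPM at every stage, Ccne1 at 0.38, 1.3 and 0.88 CPM and Ccne2 at 3.04, 1.96 and 4.19 CPM.

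Of the mitosis genes that act on chromosomes, Top2a, Mki67, Cenpf and Cenpe were lower in dpc16 than in NP, and Cenpa was not. Top2a, the topoisomerase that untangles sister chromatids, had 525 UMIs in NP, 630 in dpc16 and 394 in dpp42, or 99.7, 51.3 and 86.9 CPM, and its dpc16 level was 0.52 of the NP level (0.46 to 0.58). Mki67, which coats mitotic chromosomes, was at 28.7, 18.4 and 33.5 CPM, with dpc16 at 0.64 of NP (0.52 to 0.79). Both were therefore low in dpc16, and dpp42 was above dpc16 by 1.69 for Top2a (1.49 to 1.92) and by 1.82 for Mki67 (1.47 to 2.25). Without the cells of 17/6 these ratios of dpp42 to dpc16 were 1.28 (1.12 to 1.48) and 1.44 (1.15 to 1.81), neither past 1.5-fold. Cenpf and Cenpe, large proteins of the kinetochore, had dpc16 levels of 0.49 (0.41 to 0.58) and 0.64 (0.49 to 0.84) of NP. Cenpa, the histone H3 variant that marks centromeres, was level between those libraries at 58.9 CPM in NP, 59.2 in dpc16 and 45.4 in dpp42.

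Of the spindle genes, Kif11, Hmmr, Nusap1, Kif23 and Prc1 were lower in dpc16 than in NP. Kif11, Hmmr and Kif23 stayed lower both by median-ratio scaling and without 17/6, Nusap1 by the scaling only, and Prc1 under neither. Kif11 and Kif23 passed the minimum through NP only, so their entry was not independent of being lower in dpc16. Kif11, the motor that separates the spindle poles, was at 15.6 CPM in NP, 6.36 in dpc16 and 11 in dpp42. Hmmr, a spindle assembly protein, was at 25.1, 10.3 and 15.4 CPM and was low in both later libraries, with a dpc16 ratio of 0.41 (0.32 to 0.53) and a dpp42 ratio of 0.62 (0.45 to 0.83) to NP. Nusap1, which bundles spindle microtubules, was at 34.0, 17.1 and 27.6 CPM. Kif23 and Prc1, which act at the central spindle before the cells part, had dpc16 ratios of 0.51 (0.39 to 0.68) and 0.63 (0.53 to 0.76) to NP. Tpx2, which activates Aurora A on the spindle, had 0.70 (0.54 to 0.91) and was not past 1.5-fold.

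Of the cyclin, kinase and ubiquitin ligase genes, Ccna2 was lower in dpc16 than in NP, and Cdk1, Ccnb1, Ccnb2, Cdc20 and Ube2c were not past 1.5-fold. Cdk1, the kinase of mitotic entry, was level at 28.3, 29.5 and 26.9 CPM, and its partner Ccnb1 at 19.5, 22.0 and 16.8 CPM. Ccnb2, the other B-type cyclin, had 96, 276 and 51 UMIs, or 18.2, 22.5 and 11.3 CPM. It was lowest in dpp42, at 0.62 of NP (0.43 to 0.88) and 0.50 of dpc16 (0.36 to 0.68). Ccna2, the cyclin of S and G2, was at 18.6, 12.1 and 13.2 CPM, and its dpc16 level was 0.65 of NP (0.50 to 0.85). Cdc20, an activator of the anaphase-promoting complex, was at 24.1, 31.0 and 19.6 CPM, with a dpc16 ratio of 1.28 to NP (1.05 to 1.58) that was short of 1.5-fold. Ube2c, the conjugating enzyme of the same ligase, was at 58.3, 49.3 and 43.0 CPM. Birc5 and Cdca8 belong to the chromosomal passenger complex, and neither was past 1.5-fold in dpc16 over NP, with 0.85 (0.70 to 1.04) and 1.05 (0.86 to 1.29). Cdca3, known to promote mitotic entry, was at 16.3, 21.4 and 13.7 CPM and lower in dpp42 than in dpc16 at 0.64 (0.48 to 0.85). Aurkb, Bub1 and Plk1, kinases of the spindle checkpoint and of mitotic progress, were below 10 CPM at every stage.

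The direction of a mitosis gene went with the length of its transcripts. Across the 20 measured mitosis genes, Spearman's rho between the length of the gene's longest annotated coding transcript and the dpc16 over NP ratio was −0.70, and it was 0.81 for dpp42 over dpc16 and 0.16 for dpp42 over NP. Genes of 1 library pair share the libraries and are not independent replicates. All measured genes had the same signs, at −0.29 over 7831 genes, 0.33 over 7876 and 0.06 over 7844. The replication genes had −0.05 over 11 genes for dpc16 over NP, −0.15 over 11 for dpp42 over dpc16 and −0.33 over 10 for dpp42 over NP, with the sign of all genes in the first alone. Top2a with 5221 bases, Kif11 with 4819 and Cenpf with 11130 were low in dpc16, while Cdc20 with 1793, Ccnb2 with 1531 and Cenpa with 1466 were not, although Pcna with 1518 was. Of these, Kif11 passed the minimum through NP only. Among mitosis genes of 4000 bases or more, a split chosen after the values were seen, 5 of 7 were lower in dpc16 than in NP with a median log2 ratio of −0.64, and among shorter ones 5 of 13 with −0.24. Of all measured genes, 33.2% of the 2701 longer and 15.2% of the 5130 shorter were lower, with medians of −0.36 and −0.05. The part of length in the members' differences was not tested.

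**Figure D3:**
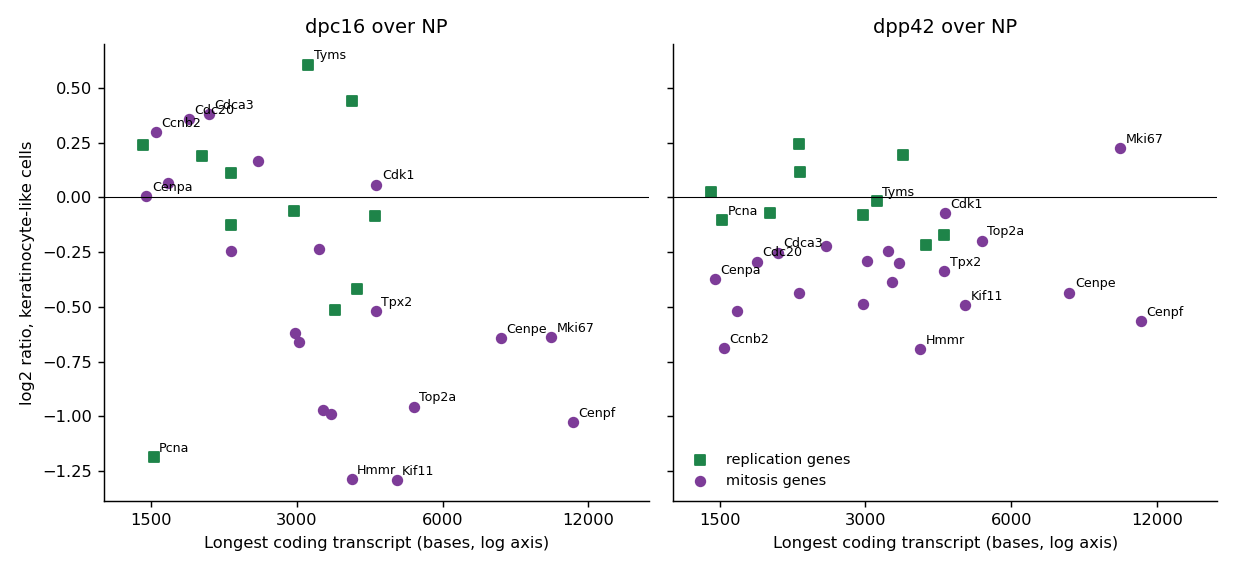
Length of the longest annotated coding transcript in bases (log axis) against the log2 ratio of CPM in keratinocyte-like cells, for the measured replication and mitosis genes, with dpc16 over NP in one panel and dpp42 over NP in the other. Long mitosis genes such as Cenpf and Kif11 lie low for dpc16 over NP (Spearman's rho −0.70 over 20 genes), and no such slope shows for dpp42 over NP (0.16).

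Cells were next counted rather than UMIs, as those with at least 2 different genes of a group after every cell had been thinned to 1000 UMIs. In keratinocyte-like cells, 88 of 1082 NP cells passed for mitosis genes (8.13%, 6.57 to 9.92), 133 of 2006 dpc16 cells (6.63%, 5.58 to 7.81) and 56 of 804 dpp42 cells (6.97%, 5.30 to 8.95). For replication genes 66, 104 and 52 cells passed, or 6.10%, 5.18% and 6.47%. All these intervals overlapped, so no difference in the share of such cells was detectable at this depth and number of cells. Without thinning the mitosis shares were 11.1%, 11.9% and 11.9%, and the replication shares 25.4%, 27.1% and 26.1%.

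Sebocyte-like cells, here those of cluster 15 alone, are mostly post-mitotic and served as the level of stray UMIs. In that cluster 0 of 50, 1 of 199 and 0 of 61 thinned cells passed for mitosis genes and 0 in any library passed for replication genes, where 0 of 50, at 3 counts of the total, still allows a share of up to 6.00%. Without thinning, 2.0%, 3.52% and 4.92% of the sebocyte-like cells passed for mitosis genes, below the share in all keratinocyte-like cells. For replication genes 38.0%, 25.6% and 31.1% passed, about as many as in all keratinocyte-like cells, so nothing is read from the unthinned replication shares. Their median depth was 7961, 8309 and 8872 UMIs, against 3237, 4678.5 and 3577 UMIs for keratinocyte-like cells.

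The cut at 2 genes was not an empty gap for either group, although few cells lay at it for mitosis genes. For mitosis genes, 52 NP, 123 dpc16 and 41 dpp42 keratinocyte-like cells had exactly 1 gene and 8, 23 and 7 had 2, while 71, 79 and 42 had 4 or more, with at most 13, 10 and 14 genes in a cell. For replication genes, 207, 341 and 130 cells had 1 gene and 44, 78 and 32 had 2, and 13, 8 and 12 had 4 or more. Mitosis genes thus set a clearer class apart than replication genes, whose cells lie mostly at the cut. Of the cells that passed for mitosis genes, 27 of 88 in NP, 46 of 133 in dpc16 and 33 of 56 in dpp42 also passed for replication genes, which is 30.7%, 34.6% and 58.9% of the mitosis cells and 40.9%, 44.2% and 63.5% of the replication cells. Cells that passed for mitosis genes were deeper, with median depths before thinning of 4223, 6569 and 4102 UMIs, against 2582.5, 3983 and 2853 UMIs in keratinocyte-like cells with no UMI of any of the 42 genes.

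The cells that passed for mitosis genes sat in a few keratinocyte clusters, and the order of the libraries was not the same in each. In cluster 6, led by Akr1c18 and Slpi, 32.3% passed in NP, 23.7% in dpc16 and 16% in dpp42. In cluster 7, led by Serpinb2 with Fosl1 among its top genes, it was 32.6%, 13.9% and 21.4%, the last from 14 cells, and in upper follicle cluster 12 it was 19.1%, 11.2% and 11.5%. In basal cluster 2 the shares were 3.96%, 9.57% and 8.79%. Cluster 17/6 held a further 17 of the 89 NP cells that passed among all kept cells (19.1%), 0 of 156 in dpc16 and 16 of 58 in dpp42 (27.6%). Its best marker list was the basal one, with the Schwann list next, and it was given no subtype. With its cells counted in cluster 2 the shares there were 11.4%, 9.57% and 22.4%, so which library is lowest in cluster 2 depends on where 17/6 is counted. At most 1.37% passed in any library in the spinous clusters 9 and 10. Replication-dependent histone genes had entered the clustering and were among the leading genes of clusters 6 and 17, and with them left out as well the sums and counts of the class were within the intervals given here. The shares by cluster were not recounted that way. All 17 NP and 16 dpp42 cells of 17/6 passed, and Lockd and Pbk, which are in none of the lists, were among its leading genes. Shares by cluster, that of 17/6 above all, are thus not independent of how the clusters were made.

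**Figure D4:**
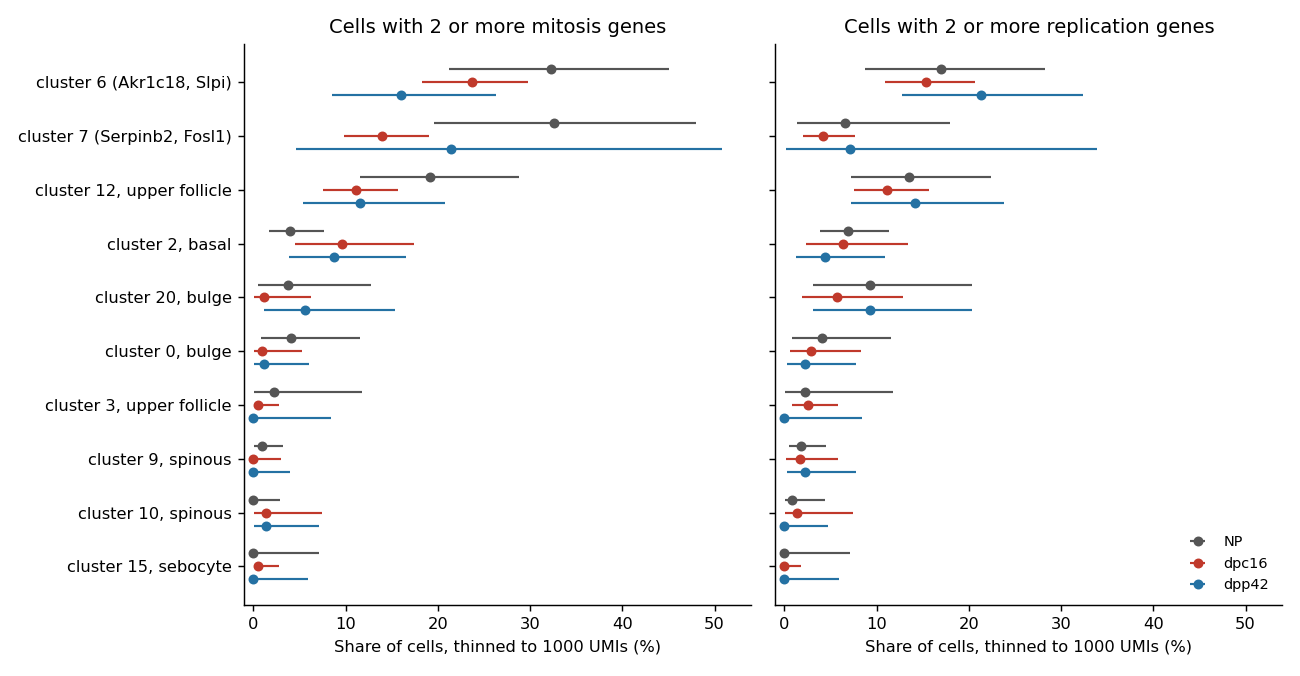
Percent of thinned cells with at least 2 mitosis genes or at least 2 replication genes in 10 keratinocyte-like clusters, with 1 point per library and exact 95% Clopper-Pearson intervals for counting error. Clusters 6, 7 and 12 hold high mitosis shares, NP being highest in each. Cluster 17/6 is not drawn, and basal cluster 2 stands at 3.96% in NP without its cells and would stand at 11.4% with them.

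The summed levels of cluster 2 depended on 17/6 in the same way. In basal cluster 2 the mitosis genes stood at 626 CPM in NP, 1391 in dpc16 and 1041 in dpp42, so dpc16 was 2.22 of NP (1.94 to 2.55) and dpp42 was 1.66 of NP (1.42 to 1.95). With the cells of 17/6 counted there, an alternative added after the data were seen, the levels were 1804, 1391 and 2541 CPM, the dpc16 ratio to NP turned to 0.771 (0.696 to 0.853) and the dpp42 ratio to NP was 1.41 (1.29 to 1.54). In cluster 6 the mitosis genes stood at 2704, 1736 and 1550 CPM, in cluster 7 at 3212, 1130 and 1851 CPM, and in cluster 12 at 1962, 613 and 1179 CPM. The dpc16 ratios to NP were 0.642 in cluster 6 (0.592 to 0.697), 0.352 in cluster 7 (0.320 to 0.387) and 0.312 in cluster 12 (0.278 to 0.351). Few cells carry these values: 3 of 94 dpc16 cells and 3 of 202 NP cells gave 50% of the mitosis UMIs in cluster 2, and 10 of 237 dpc16 cells and 4 of 46 NP cells did in cluster 7. The intervals count UMIs and not cells.

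Among cells that passed for at least 2 mitosis genes before thinning, the mix of mitosis transcripts also differed at dpc16. The 120 NP, 239 dpc16 and 96 dpp42 keratinocyte-like cells held 3292, 5745 and 2250 mitosis UMIs. Top2a made up 15.1% of them in NP (13.9 to 16.4), 9.89% in dpc16 (9.13 to 10.7) and 16.3% in dpp42 (14.8 to 17.9). Cdc20, which acts from metaphase on, made up 3.58%, 6.32% and 3.73%, Cenpa 8.96%, 11.6% and 8.31%, and Cdca3 2.52%, 4.32% and 2.67%. NP and dpp42 were thus close to each other for these genes and dpc16 stood apart. Hmmr made up 3.95%, 2.12% and 3.02%, and Ccnb2 2.83%, 4.68% and 2.13%. In the same cells Pcna made up 12.6%, 5.53% and 12.2% of the 723, 1773 and 757 replication UMIs. The dpc16 cells were deeper, and the genes with smaller shares there include the long ones described above, whose part was not tested.

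**Figure D5:**
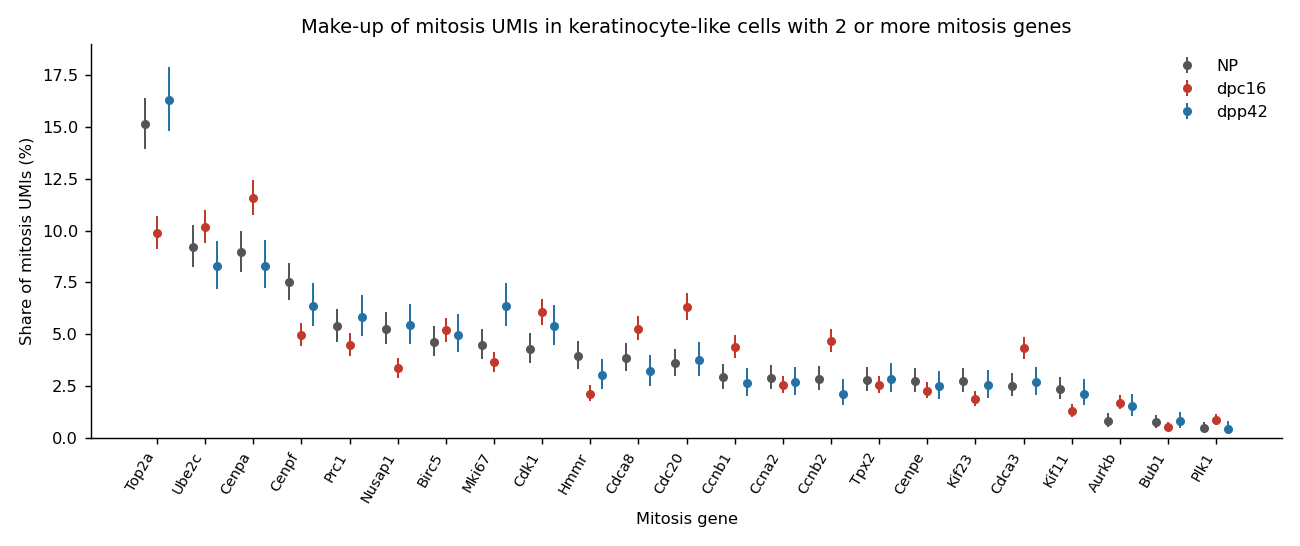
Share of each mitosis gene among all mitosis UMIs of keratinocyte-like cells with at least 2 mitosis genes before thinning, in percent, with 1 point per library and exact 95% intervals for counting error. Top2a has 15.1% in NP, 9.89% in dpc16 and 16.3% in dpp42, while Cdc20 has 3.58%, 6.32% and 3.73%.

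In fibroblast-like cells, mitosis transcripts were scarce in NP and dpp42 and more abundant in dpc16. The mitosis genes gave 8 UMIs in 115 NP cells, 626 in 1161 dpc16 cells and 6 in 122 dpp42 cells, or 23.8 CPM (10.3 to 46.9), 122 CPM (113 to 132) and 18.8 CPM (6.9 to 41.0). The dpc16 level was 5.13 of the NP level (2.59 to 11.9), and the dpp42 level was 0.154 of the dpc16 level (0.0564 to 0.338). Different clusters held most of this class in different libraries: in dpc16 cluster 18 had 350 cells and cluster 5 had 247, in NP cluster 4 had 48 and cluster 23 had 28, and in dpp42 cluster 23 had 58. The dpc16 UMIs came from few cells, since 6 of the 1161 gave 50% of them, the top 10 gave 64.7% and the top cell alone had 85. Cenpa led with 98 UMIs in 57 cells, followed by Ube2c with 64 UMIs, and Top2a and Cdk1 had 45 each, while Bub1 had 0. After thinning, 11 of 1161 dpc16 fibroblast-like cells had at least 2 mitosis genes (0.947%, 0.474 to 1.69), against 0 of 115 in NP and 0 of 122 in dpp42, which at 3 counts of the total allow shares of up to 2.61% and 2.46%. The shares do not separate the stages, because the NP and dpp42 libraries held too few fibroblast-like cells to exclude the dpc16 share.

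The replication genes did not go with them in fibroblast-like cells. They gave 63, 685 and 48 UMIs, or 187 CPM in NP, 134 CPM in dpc16 and 151 CPM in dpp42. The dpc16 level was 0.713 of the NP level (0.551 to 0.939). Pcna was at 62.5, 17 and 53.4 CPM in these cells, low in dpc16 as in keratinocyte-like cells. The sum was not taken without Pcna, so 0.713 is not read as a fall of the whole group. Slbp had 18, 197 and 8 UMIs and Tyms 1, 64 and 5. The ratio of mitosis to replication UMIs was 0.127 in NP, 0.914 in dpc16 and 0.125 in dpp42, whereas in keratinocyte-like cells it was 2.01, 1.67 and 1.64.

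The 34 dpc16 fibroblast-like cells with at least 2 mitosis genes before thinning had a median depth of 5479 UMIs, against 3985 UMIs for the 982 with none. The fibroblast marker genes summed to 65843 CPM in the cells with them and 96756 CPM in those without. The keratin genes of keratinocytes, Krt1, Krt5, Krt10, Krt14, Krt15 and Krt17, summed to 2690 and 1675 CPM in the same cells. Depth and keratin UMIs thus moved with the mitosis UMIs, and their part was not tested.

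Endothelial, mural and immune cells gave few mitosis UMIs in all, and the highest library was not the same in each class. In blood endothelial-like cells, which line the vessels, NP had 8, dpc16 had 111 and dpp42 had 16, or 66.2, 175 and 51.7 CPM. In lymphatic endothelial-like cells there were 1, 113 and 8, or 15, 153 and 54 CPM, and in mural cells, the contractile cells around vessels, 2, 71 and 1. In these endothelial and mural classes dpc16 was the highest, though 4 blood endothelial-like cells, 3 lymphatic cells and 1 mural cell gave 50% of the dpc16 UMIs. In Langerhans and dendritic-like cells NP was the highest in CPM, with 57, 130 and 4 UMIs, and 48 of the 57 NP UMIs were in 1 cell. In T, NK and innate lymphoid-like cells dpp42 was the highest, with 268, 430 and 1319 CPM for the 3 stages, and 20 of its 27 UMIs were in 1 cell. The 62 macrophage-like cells were all of dpc16 and held 74 mitosis and 45 replication UMIs.

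Replication transcripts were not scarce in the vessel classes. Blood endothelial-like cells had 397 CPM in NP, 269 in dpc16 and 462 in dpp42, at or above the level of keratinocyte-like cells in NP and dpp42. After thinning, 3 of 41, 4 of 128 and 8 of 89 of them had at least 2 replication genes, whereas 0, 2 and 0 had at least 2 mitosis genes. Pcna made up 27.1%, 24.1% and 40.6% of the replication UMIs in these cells, and Slbp 22.9%, 22.9% and 18.2%. In fibroblast-like cells Pcna made up 33.3%, 12.7% and 35.4%, and Slbp 28.6%, 28.8% and 16.7%. In keratinocyte-like cells Pcna made up 20.4%, 9.79% and 19.2%, and Slbp 14.8%, 18.5% and 14.3%. In NP and dpp42 Pcna had the larger share of the pair in all 3 classes, whereas in dpc16 Slbp had it in the fibroblast-like and keratinocyte-like cells.

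Further cell cycle genes, in lists of their own, were measured in the same keratinocyte-like cells. Of 54 other mitosis genes, 29 were measured for dpc16 over NP, with 14 lower, 0 higher and −0.55 as the median log2 ratio. Of all 7930 genes measured for that pair, 21.8% were lower and 8.75% higher. Pttg1, securin, which keeps sister chromatids from separating before anaphase, was at 66.4 CPM in NP, 37.7 in dpc16 and 53.6 in dpp42. Cks2, a subunit of Cdk1, was level at 102, 92.1 and 98.1 CPM. Of 49 other replication genes, 21 were measured, 1 was higher and 4 lower. Nasp, a histone chaperone, was level at 50.9, 53.5 and 43.0 CPM. For dpp42 over NP, 4 of 30 other mitosis genes were lower and 0 of 21 other replication genes were called. Of all 7954 genes, 2.85% were lower and 4.34% higher.

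The genes of G1 and of cell cycle arrest were called in both directions. Ccnd2, cyclin D2, stood at 138 CPM in NP, 209 in dpc16 and 135 in dpp42, while Ccnd1, cyclin D1, stood at 25.2, 14.5 and 24.9 CPM. The G1 cyclins were thus high and low in dpc16, each alone among the 3 stages. Cdkn1b, the inhibitor p27, stood at 48.6, 19.3 and 47.2 CPM, and was lower in dpc16 than in NP at 0.40. Cdkn1a, the inhibitor p21, stood at 528, 513 and 367 CPM. Of 16 G1 genes, 13 were measured for dpc16 over NP, 1 was higher and 4 lower, and of 7 inhibitors 5 were measured and 2 were lower. Of 19 chromatin and tubulin genes, all measured, 1 was higher and 2 lower. Of all 7930 genes, 21.8% were lower and 8.75% higher, and with lists this short nothing is read from these counts. For dpp42 over NP, 0 genes of these 3 lists were called, where 2.85% of 7954 genes were lower and 4.34% higher.

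Genes outside all lists that went with the mitosis genes were looked for by comparing, within each library, keratinocyte-like cells with at least 2 mitosis genes and those with no UMI of any of the 42 genes, of which there were 402 NP, 637 dpc16 and 289 dpp42 cells. Of 1938 genes with at least 50 CPM in the mitosis cells of every library, the 10 with the highest value of their lowest ratio were Pbk, Lockd, 2700094K13Rik, Ccdc34, Dnph1, Prdx4, Hn1, Ube2s, Cmc2 and Lsm3. Pbk, a kinase active in mitosis, was at 117, 85.0 and 93.4 CPM in the mitosis cells, which was 161, 64.0 and 103 times the level in the other cells. Lockd, a long non-coding RNA, was at 216, 137 and 195 CPM, or 49.7, 46.0 and 35.7 times. Ube2s, which extends ubiquitin chains on targets of the anaphase-promoting complex, was at 638, 558 and 467 CPM, or 4.39, 3.23 and 5.13 times. The other 7 had ratios between 2.52 and 8.88. Depth is part of how the cells were chosen, since deeper cells pass more readily.

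Markers of skin layers were compared between the mitosis cells and the cells without any of the 42 genes in each library, and the markers of a layer did not all go one way. Of the basal markers, Krt5 and Krt14, the basal keratins, had ratios of 1.08 and 1.39 in NP, 1.15 and 1.04 in dpc16 and 1.00 and 1.04 in dpp42. Krt15 was at 0.66, 0.73 and 0.74, and Ccl27a, an epidermal chemokine, at 0.40, 0.60 and 0.62. Col17a1 and Dst, parts of the hemidesmosome, were at 0.79 and 0.70 in NP, 0.83 and 0.90 in dpc16 and 0.84 and 0.75 in dpp42, and Trp63, the transcription factor p63, at 0.73, 0.97 and 0.85. The integrins Itga6 and Itgb4 were below 1 in NP, at 0.77 and 0.81, and above 1 in dpc16 and dpp42. Krt10, a keratin of the suprabasal layers, was at 1.17, 1.29 and 2.41, Krtdap, another suprabasal gene, at 1.64, 1.23 and 3.40, and Krt1 at 0.76, 1.23 and 1.68. The ratios of Krt10, Krtdap and Krt1 were highest in dpp42. These cells were chosen before thinning and summed by UMIs, so deep cells pass more readily and weigh more. In dpp42 the median depth was 9683 UMIs in spinous cluster 10 and 20262.5 in granular cluster 11, against 2696 in basal cluster 2. Cluster 11 held 115 mitosis UMIs in dpp42, against 10 in NP and 9 in dpc16. The part of depth in these ratios was not tested.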

How the data were processed

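Single-cell RNA (3′ ends) was measured in 3 libraries, 1 per stage. The deposited matrices hold whole-number counts of UMIs per gene and barcode, made by the authors with Cell Ranger 2.2.0 on mm10, per the submitters' processing notes. The sources used here do not give the barcode filter or annotation release. Depth was 6031814 UMIs in NP, 21679047 in dpc16 and 5794940 in dpp42. Barcodes with at least 200 genes and at most 10% mitochondrial UMIs were kept, which left 1289, 3652 and 1081 cells, where the submitters' design text states 1289, 3650 and 1081.

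The cells were clustered with scanpy 1.11.5 (2000 variable genes without the 42 genes and the other cell cycle lists, 30 principal components, 15 neighbours, Leiden resolution 1) and named from 24 marker lists. A name needed 3 markers at 1.4 times the median cluster. Clusters 17 and 19, which mixed classes, were split at resolution 2 after their leading genes were seen. Scrublet marked 0.0776%, 0.0548% and 0.0925% of the cells, too few to have worked, so no doublets were removed. Counts were summed per library and class, with no test, since no spread between animals exists. Intervals are exact Poisson for sums, exact conditional binomial for ratios and Clopper-Pearson for shares, at 95%. The limit beside a count of 0 is 3 counts of the total. PCR and droplet effects are not in them. Shares used cells thinned to 1000 UMIs with seed 1; no kept cell was shallower. The log2 ratios had 0.5 UMIs added to each sum.

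In simulated Poisson counts for dpc16 over NP, the 1.5-fold rule recovered 98.0% of the genes raised 2-fold and 100.0% of those lowered 2-fold, and called 0.298% of unchanged genes, over 7568 genes. It called 1.08% of unchanged genes for dpp42 over NP and 0.350% for dpp42 over dpc16. Such counts leave out the gathering of UMIs in few cells, so they do not give the rate of false calls in these data. Every one of the 42 genes could be named; from each other list the 5 genes with most UMIs could be, and of genes outside the lists the 10 with the highest lowest ratio. Of the largest genes of those lists, Smc4, Hmgb2, Tubb5, Myc and Cdk6 are not described further. The alternatives tried were other mitochondrial limits, class names, resolutions, gene filters, fold thresholds, scalings, thinning depths and cell weights, and leaving out shared barcodes, the deepest cells or the top gene. The members and lists were chosen with earlier results of these data known. Promoters came from RefSeq on GRCm38.p6, the build of the files.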

Additional observations from a re-analysis of the deposited data

Results flagged for a closer look

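Mitosis genes stood on opposite sides of 1 in different classes for the same pair of libraries, and each of these differences between classes was not tested. For dpc16 over NP the ratio of summed CPM was 5.13 in fibroblast-like cells (2.59 to 11.9), 2.65 in blood endothelial-like cells (1.3 to 6.29), 10.2 in lymphatic endothelial-like cells (1.80 to 408) and 5.15 in mural-like cells (1.37 to 43.4), whereas in keratinocyte-like cells it was 0.762. The NP sums behind these ratios were 8, 8, 1 and 2 UMIs, so the ratios of the lymphatic and mural classes are known only within wide limits.

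For dpp42 over dpc16 the ratio was 0.154 in fibroblast-like cells (0.0564 to 0.338), 0.295 in blood endothelial-like cells (0.163 to 0.5), 0.352 in lymphatic endothelial-like cells (0.148 to 0.718), 0.324 in Langerhans and dendritic-like cells (0.0870 to 0.850) and 0.0536 in mural-like cells (0.00134 to 0.309), against 1.06 in keratinocyte-like cells. These share the dpc16 library with the ratios above and are not independent of them. Of the 2400 dpp42 mitosis UMIs in keratinocyte-like cells, 610 were in cluster 17/6, which has no dpc16 cell. With the mixed clusters not split, the dpp42 ratio to NP was below the dpc16 ratio to NP, which puts dpp42 below dpc16. The side of 1 on which the keratinocyte-like ratio of 1.06 lies therefore depends on where the cells of 17/6 are counted. For dpp42 over NP the ratio was 4.92 in T, NK and innate lymphoid-like cells (1.99 to 14.6), against 0.805 in keratinocyte-like cells. It rested on 6 dpp42 cells with 27 mitosis UMIs, of which 1 cell held 20.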

How the results depend on the processing

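With 1 library per stage, no library could be left out and the spread between animals is unknown. No paired analysis was possible because each stage has 1 library and the labels carry no replicate numbers. Of 243 values under an alternative, for 23 results, 190 stayed within the interval or within 1.5 times the count, 51 moved and 2 turned their direction; the cause was not tested. Where nothing else is said, ratios are dpc16 over NP in keratinocyte-like cells. The replication ratio of 0.915 turned to 1.04 by median-ratio scaling, was 0.793 with 10 of 17 clusters weighted equally, 0.830 as a mean over cells, 0.854 without the deepest 5% of cells (302 in all) and 0.991 with the mixed clusters not split, an alternative added after the data were seen. The mitosis ratio of 0.762 was 0.678 with classes from each cell's own markers, 0.650 with equal weights, 0.866 by median-ratio scaling, 0.807 without Top2a, 0.602 as a mean over cells, 0.809 at a 5% mitochondrial limit, 0.956 unsplit and 0.611 without the deepest cells, so it stayed below 1 in all 13 alternatives. For dpp42 over NP, mitosis (0.805) was 0.657 with own-marker classes, 0.698 with equal weights, 0.872 as a mean over cells, 0.860 at 5% mitochondrial and 0.734 unsplit, and replication (0.987) was 0.861 with own-marker classes and 1.07 at 5% mitochondrial. In all kept cells, mitosis (0.619) was 0.672 by median-ratio scaling, 0.657 without its top gene, 0.484 as a mean over cells, 0.589 at 5% mitochondrial and 0.480 without the deepest cells, and replication (0.798) was 0.866, 0.753, 0.707, 0.757 and 0.716 under the same alternatives. In all kept cells for dpp42 over NP, mitosis (0.755) was 0.714 by median-ratio scaling and replication (1.02) was 1.11 at 5% mitochondrial. The ratio of shares of cells with 2 mitosis genes (0.815) was 0.606 after thinning to 500 UMIs. The count of lower mitosis genes (10) was 6 by median-ratio scaling, 4 unsplit and 3 at a 2-fold threshold, and of higher ones (0) it was 1 unsplit and 1 with no filter on low counts. For dpp42 over NP the lower mitosis genes (2) were 11 with own-marker classes, 4 at 5% mitochondrial, 4 unsplit, 5 with no mitochondrial limit and 0 at 2-fold. Higher replication genes (1) were 2 by median-ratio scaling, 2 unsplit and 0 at 5% mitochondrial, at 2-fold and without the deepest cells, and lower ones (1) were 2 with own-marker classes, 2 with no filter and 4 without the deepest cells. In basal cluster 2 the mitosis ratio of 2.22 turned to 0.771 with the cells of 17/6 counted there, and for dpp42 over NP 1.66 was 1.41. The fibroblast-like mitosis ratio of 5.13 ran from 3.95 to 7.93 over 9 alternatives. Genes under 10 CPM, 11 of the 42 for dpc16 over NP, are limited by depth.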
